A study of Mus musculus with 8 samples.

Results

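Midbrain dopamine neurons and hindbrain serotonin neurons of the mouse embryo were compared from ribosome-bound messenger RNA, using the 4 of the 8 libraries of the series whose file headers name the same sequencing lane, lane 8. The dopamine class was the library titled Lateral and the library titled Medial, 1 each, and the serotonin class was libraries 1 and 2, chosen by title and lane and not by any measured value. A bacTRAP line uses the regulatory DNA of a marker gene to express a ribosomal protein with a tag, so that the mRNA being translated in the marked cells can be isolated from dissected tissue. The design text names a dopamine transporter (Slc6a3) line and a serotonin transporter (Slc6a4) line, while the description of every library, serotonin included, names the Slc6a3 line JD1640. The groups were therefore taken from the titles. Per the labels, normal embryos were dissected on embryonic day 15, and tissue called day 18 was taken on day 15 and then kept for 3 days in vitro. That sentence stands with every library, but only the headers of Lateral and Medial carry the mark E18. Neuron type, brain region and this mark cannot be told apart in these 4 libraries. The labels do not explain Lateral and Medial further and do not say whether libraries came from separate animals, so the p-values measure only the spread between libraries, which may be technical. A purified library is still a mixture, and in it fewer cells of a type and less RNA per cell cannot be told apart.

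Dopamine and serotonin neurons are the main monoamine neurons of the brainstem and share much of their chemistry. Tyrosine hydroxylase (Th) starts dopamine synthesis and tryptophan hydroxylase 2 (Tph2) starts serotonin synthesis. Aromatic amino acid decarboxylase (Ddc) then completes both transmitters, the vesicular transporter Slc18a2 packs both, and Slc6a3 or Slc6a4 takes the released transmitter back up. During development the factors Lmx1a, Foxa2, Nr4a2 and Pitx3 specify the dopamine neurons of the ventral midbrain, and Gata2, Gata3, Lmx1b and Fev specify the serotonin neurons of the hindbrain raphe.

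The 4 libraries held between 22417739 and 33216710 counts assigned to genes, and 13400 of 38924 genes had enough counts to be tested. Levels are CPM, the count of a gene scaled to the library's total, and differences are log2 values of dopamine minus serotonin from edgeR's quasi-likelihood test. The serotonin libraries resembled each other more than the dopamine libraries did: Pearson's r of log2 CPM over the tested genes was 0.876 between serotonin 1 and 2 and 0.748 between Lateral and Medial. Lateral correlated with the serotonin libraries at 0.830 and 0.822, above its correlation with Medial, and Medial correlated with them at 0.702 and 0.696. Medial therefore stood apart from the other 3 libraries. Of the 4 libraries Medial also had the fewest counts, 22417739. It had the fewest genes with at least 5 counts, 12025 against 14079 in Lateral and 13711 and 13362 in serotonin 1 and 2. The part of this in the low levels of Medial was not tested. The biological coefficient of variation, the relative spread beyond counting error, was 1.04 for the Lateral and Medial pair and 0.619 for the serotonin pair. The labelled cell types were present by their defining transporters and synthesis enzymes, whereas the dopamine factor Pitx3 was at 0.723 and 4.01 CPM in Lateral and Medial.

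Of the 13400 genes, 3 passed an adjusted p of 0.05 in edgeR (0.0224%), 1 of them higher in dopamine (0.00746%) and 2 lower (0.0149%). All 3 are identity genes: the retinaldehyde dehydrogenase Aldh1a1, which marks a subset of midbrain dopamine neurons, rose, and the serotonin transporter Slc6a4 and the serotonin factor Fev fell. At an unadjusted p under 0.05 there were 984 genes higher (7.34%) and 865 lower (6.46%). DESeq2 called 917 genes, 585 of them higher, and limma-voom called only Tph2, which was lower. The count of calls depended on single libraries: it was 2453 without Lateral, 23 without Medial, 13 without serotonin 1 and 22 without serotonin 2, where the lone library of a class is assumed to vary like the other class. The 3 called genes passed in each of these 4 cases, but not in limma-voom or in a fit of all 8 libraries in 5 groups, which called no gene and had 331 at an unadjusted p under 0.05.

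Because so few genes passed, genes were also described by the gap between the classes. A gene is called separated here when the lower library of one class was at least 4 times the higher library of the other, on normalised CPM with 0.5 added. By this measure 190 genes were separated with dopamine higher (1.42%) and 127 with dopamine lower (0.948%). The counts were 332 and 229 without Medial, 871 and 1632 without Lateral, 454 and 269 without serotonin 1, and 432 and 221 without serotonin 2. The classes did not overlap at all, with any gap, for 3121 genes with dopamine higher (23.3%) and 3571 with dopamine lower (26.6%). Lateral and Medial themselves differed at least 4 times at 2998 genes (22.4%), against 929 genes for the serotonin pair (6.93%). Separation is a description of these 4 libraries and not a test, and only the 3 called genes are said to have risen or fallen. The median log2 difference over all tested genes was 0.03, and 50.9% of them were positive.

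**Figure D1:**
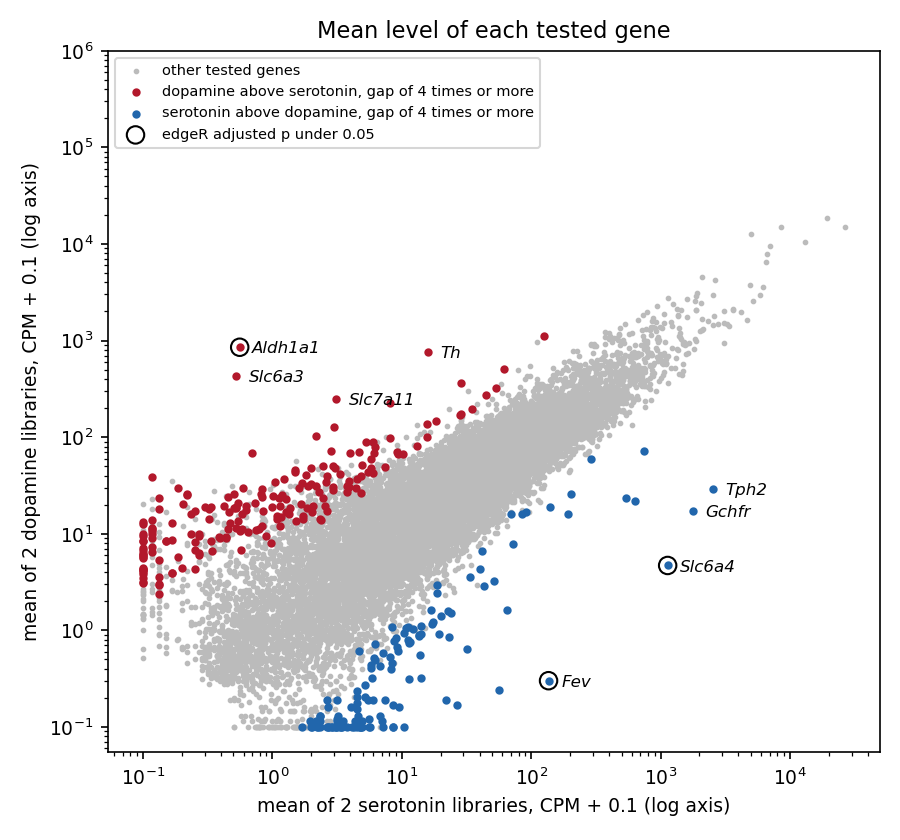
Mean level of each of the 13400 tested genes in the 2 serotonin libraries (x axis) and in Lateral and Medial (y axis), in CPM with 0.1 added, both on log axes. Red and blue points are the 190 and 127 separated genes, and the 3 circled genes, Aldh1a1, Slc6a4 and Fev, passed edgeR's adjusted p of 0.05.

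The dopamine genes Aldh1a1, Th and Slc6a3 were far above the serotonin libraries in both Lateral and Medial. Aldh1a1 (ENSMUSG00000053279.6, mm10 chromosome 19, 20601961 to 20643462) was at 808 and 898 CPM in Lateral and Medial and at 0.577 and 0.343 CPM in serotonin 1 and 2, a log2 difference of 10.76 (SE 0.48, edgeR adjusted p = 0.00764). Th was at 852 and 687 CPM in Lateral and Medial and at 10.6 and 20.9 CPM in the serotonin libraries (log2 difference 5.54, SE 0.48, edgeR adjusted p = 0.0829). The dopamine transporter Slc6a3 was at 739.5 and 129.5 CPM against 0.679 and 0.171 CPM (log2 difference 9.94, SE 1.31, edgeR adjusted p = 0.254). Lateral and Medial were close for Aldh1a1 and Th, while the Slc6a3 level of Lateral was several times that of Medial, and the SE of Slc6a3 was larger. The 4 dopamine libraries titled datL and datM have no lane named in their file headers. In these libraries Aldh1a1 lay between 29.4 and 361 CPM, Th between 93.2 and 905 and Slc6a3 between 31.9 and 229. Per kilobase of exon, Aldh1a1 stood at 393 and 437 CPM in Lateral and Medial, Th at 360.3 and 291, and Slc6a3 at 214 and 37.5.

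The midbrain dopamine transcription factors Lmx1a, Nr4a2, Foxa1 and Foxa2 were also higher in both dopamine libraries, while En1 was not. Other factors on the list are not given here against serotonin. Lmx1a was at 110.0 and 145 CPM in Lateral and Medial and 2.21 and 3.60 CPM in the serotonin libraries (log2 difference 5.37, SE 0.50, edgeR adjusted p = 0.0903). Nr4a2, an orphan nuclear receptor needed for dopamine neuron development, was at 115 and 341 CPM against 10.3 and 5.76 CPM. Foxa1, a forkhead factor of the ventral midbrain, was at 40.4 and 225 CPM against 19.04 and 6.86 CPM, and its relative Foxa2 was at 5.99 and 20.8 against 2.21 and 0.0343. En1, which is made in both midbrain and anterior hindbrain, was at 74.4 and 104 CPM against 93.5 and 88.6 CPM, so its classes overlapped. Of the 25 tested genes of the 26 on a list for midbrain dopamine neurons, 6 were separated with dopamine higher (1.42% of all tested genes) and 1 with dopamine lower (Slc18a2, 0.948%). The classes did not overlap for 14 with dopamine higher (23.3%) and for 4 with dopamine lower (26.6%). The median log2 difference of these 25 genes was 2.47, against 0.03 for all genes.

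Among other members of that list, Chrna6 was at similar levels in the dopamine libraries, while Chrnb3, Gucy2c and Drd2 were found mostly in Lateral. The nicotinic receptor subunit Chrna6, enriched in dopamine neurons, was at 57.4 and 78.8 CPM in Lateral and Medial and 5.84 and 6.24 CPM in serotonin 1 and 2. Its partner Chrnb3 was at 34.9 and 1.38 CPM against 0.0339 and 0 CPM, nearly all of it in Lateral. The guanylyl cyclase receptor Gucy2c was at 34.6 and 0.223 CPM, nearly all of it in Lateral, and had no count in either serotonin library. Its dopamine mean was at least 340.5-fold higher when 3 counts over the serotonin class are taken as the floor, and it had too few counts in Medial to be tested. The D2 dopamine receptor Drd2 was at 11.7 and 0 CPM against 0.441 and 0 CPM and was therefore above the serotonin libraries in Lateral alone.

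In the serotonin libraries the transporter, the synthesis enzyme and the defining factor all stood far above the dopamine libraries. Slc6a4 (ENSMUSG00000020838.6, chromosome 11, 76998603 to 77032340) was at 1196 and 1075 CPM in serotonin 1 and 2 and at 5.27 and 3.93 CPM in Lateral and Medial, a log2 difference of -8.02 (SE 0.42, edgeR adjusted p = 0.0100). Fev, the ETS factor also called Pet1 (ENSMUSG00000055197.4, chromosome 1, 74881509 to 74885419), was at 142 and 130.4 CPM against 0.0903 and 0.312 CPM (log2 difference -9.55, SE 0.70, edgeR adjusted p = 0.0465). Tph2 was at 2909 and 2189 CPM against 16.8 and 41.5 CPM (log2 difference -6.56, SE 0.58, edgeR adjusted p = 0.0829). The serotonin pair was close for these genes, and each dopamine library was lower by more than an order of magnitude. Per kilobase of exon, Tph2 stood at 1011 and 760.3 CPM in serotonin 1 and 2, Slc6a4 at 264 and 237, and Fev at 87.9 and 80.6.

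Of the 15 tested genes of an 18-gene list for serotonin neurons, 7 were separated with dopamine lower (0.948% of all tested genes) and none with dopamine higher (1.42%), and the median log2 difference was -2.22. Gata2 was at 122 and 159 CPM in serotonin 1 and 2 and 13.7 and 24.2 CPM in Lateral and Medial, and Gata3 was at 601 and 602 CPM against 210.1 and 55.9 CPM. The organic cation transporter Slc22a3, which takes up monoamines with low affinity, was at 184 and 205 CPM against 2.77 and 28.9 CPM. The vesicular glutamate transporter Slc17a8, present in a subset of serotonin neurons, was at 31.5 and 14.5 CPM against 0 and 1.52 CPM, with no count in Lateral. Not all members followed: the autoreceptor Htr1a was at 26.2 and 20.6 CPM against 9.33 and 41.04 CPM, with Lateral below and Medial above the serotonin pair, and Insm1 was at 2.54 and 5.52 CPM against 6.35 and 55.5 CPM.

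**Figure D2:**
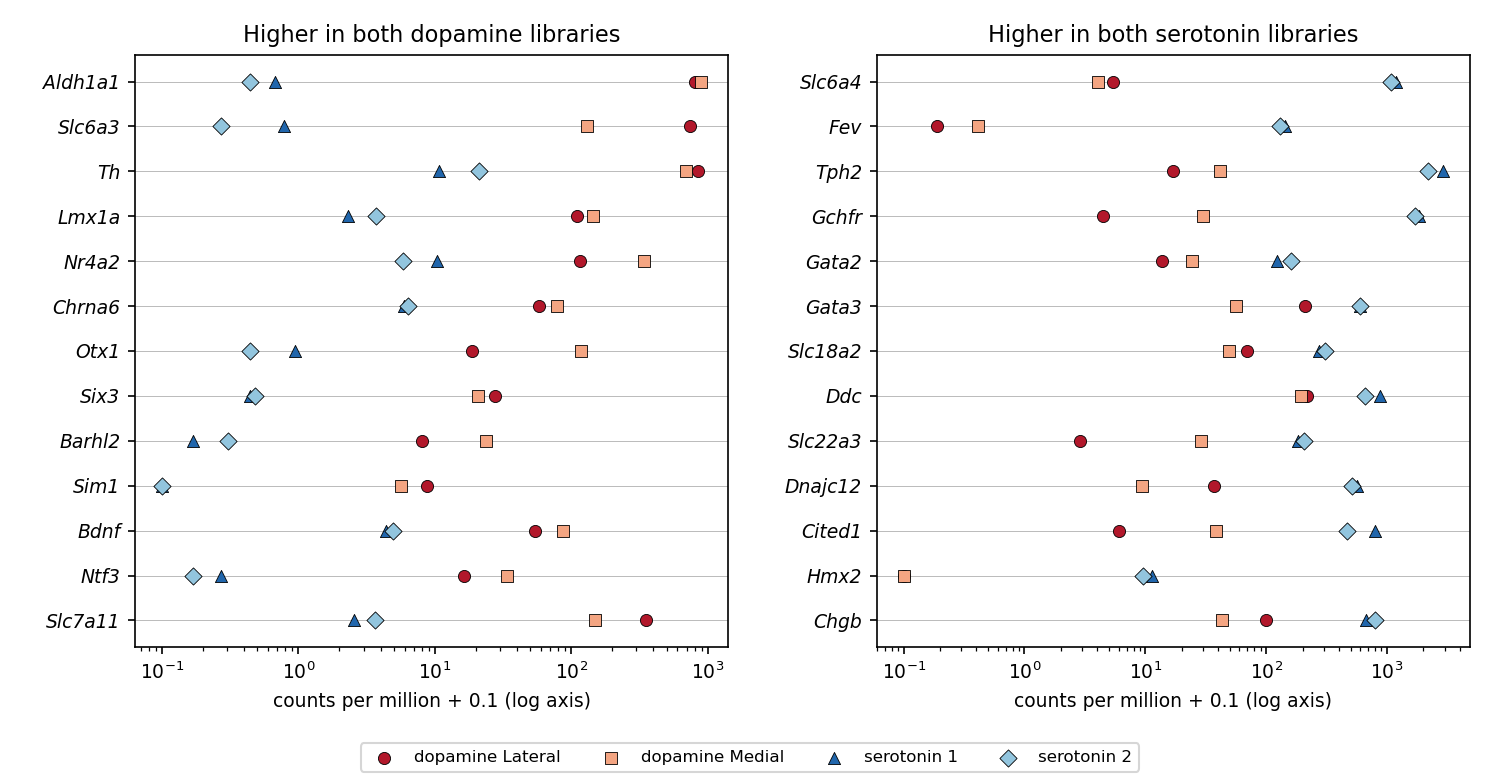
Level of selected named genes in each of the 4 libraries, in CPM with 0.1 added on a log axis, 1 symbol per library. On the left the Lateral and Medial symbols lie to the right of both serotonin symbols for each gene, and on the right the serotonin symbols lie to the right of both dopamine symbols.

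GATA factors bind DNA at a short core, and the start regions of the 3 called genes and of Tph2 are shown because these genes carry the comparison and Gata2 and Gata3 differed in level between the classes. AGATAA or AGATAG was searched on both strands from 250 bases before to 50 bases after each RefSeq start (GRCm38.p6, the mm10 build), and 30 bases around a match are given 5′ to 3′ on the strand of the gene, with the match in capitals. CTATCT is the reverse complement of AGATAG.
Fev, chr1:74885509-74885538, minus strand: attgcgatgggaAGATAAgaggggcggggg
Slc6a4, chr11:76998520-76998549, plus strand: ctttggcggcggCTATCTagagatcagacc
Tph2, chr10:115185133-115185162, minus strand: catcaggagcacAGATAAccccaagcttca
Aldh1a1, chr19:20601763-20601792, plus strand: tgagcagtctccAGATAGaacttcagggct
Aldh1a1, chr19:20601924-20601953, plus strand: cttagtgcatgcAGATAAaaaggagcaagg
The matches lay 118 bases before the start of Fev, 65 before Slc6a4, 128 before Tph2, and 193 and 32 before the Aldh1a1 start that lies at the counted gene. A second, more distant Aldh1a1 start listed in RefSeq had 1 match, and the windows of Slc6a3, Th and Lmx1a had none. The same letters occurred in 6123 of 32851 promoters of this length (18.6%), in 31 of 187 promoters of genes separated with dopamine higher (16.6%) and in 19 of 128 of genes separated with dopamine lower (14.8%). A match is a description of letters and not of binding.

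The serotonin genes were not at 0 in the lane 8 dopamine libraries. Tph2 in Lateral and Medial (558 and 930 counts) amounted to 0.659% and 1.63% of its mean in the serotonin libraries, Slc6a4 to 0.464% and 0.346%, and Gchfr to 0.248% and 1.70%. Fev had 3 and 7 counts, 0.0663% and 0.229% of the serotonin mean. In the datL and datM libraries Slc6a4 and Fev had no count and Tph2 lay between 0 and 0.0367 CPM. Gchfr went the other way in datL 1, at 37.1 CPM, above its level in Medial, and was at most 0.0832 CPM in the rest. In the other direction, Aldh1a1 in serotonin 1 and 2 (17 and 10 counts) was 0.0677% and 0.0402% of the dopamine mean, Slc6a3 was 0.156% and 0.0395%, and Th was 1.38% and 2.72%. The part of the shared lane in these low levels was not tested.

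Most of the machinery that both transmitters use was higher in both serotonin libraries. Of 16 genes for monoamine synthesis, storage and breakdown, all tested, 12 did not overlap with dopamine lower (26.6% of all tested genes) and 3 with dopamine higher (23.3%), and the median log2 difference was -1.46. Ddc was at 871 and 654 CPM in serotonin 1 and 2 and 217 and 193 CPM in Lateral and Medial (log2 difference -1.97, SE 0.31, edgeR adjusted p = 0.272). Slc18a2 was at 275 and 305 CPM against 69.7 and 49.5 CPM (log2 difference -2.35, SE 0.34, edgeR adjusted p = 0.254). Neither passed the test, although the classes did not overlap for either gene. The gap was widest for Gchfr, which encodes the feedback regulator of GTP cyclohydrolase, at 1856 and 1692 CPM against 4.40 and 30.2 CPM.

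The cofactor tetrahydrobiopterin is needed by both Th and Tph2, and its synthesis genes were also higher in serotonin 1 and 2. Gch1, the first enzyme, was at 202 and 168 CPM against 38.7 and 74.7 CPM, Pts, the next enzyme, at 105 and 127 against 35.6 and 6.78, and Pcbd1, which recycles the cofactor, at 176 and 140.4 against 71.9 and 55.4. The monoamine oxidases that break the transmitters down had the same direction, with Maoa at 219 and 183 CPM against 81.04 and 65.5 CPM and Maob at 20.7 and 22.1 against 8.43 and 0.981.

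Patterning factors of anterior brain territory were on the dopamine side. Of 22 tested midbrain and forebrain patterning factors, 14 did not overlap with dopamine higher (23.3% of all tested genes) and none with dopamine lower (26.6%), 6 were separated with dopamine higher (1.42%), and the median log2 difference was 1.79. Otx1, an anterior homeobox factor, was at 18.6 and 118 CPM in Lateral and Medial against 0.848 and 0.343 CPM in serotonin 1 and 2, and Six3, a forebrain factor, was at 27.4 and 20.5 against 0.339 and 0.377. Barhl2, a homeobox factor of diencephalon and tectum, was at 7.89 and 23.7 CPM against 0.0679 and 0.206 CPM. Sim1, a factor of hypothalamus and ventral neurons, was at 8.61 and 5.58 CPM and had no count in serotonin 1 or 2, so that dopamine was at least 139-fold higher against the same floor of 3 counts over the class. Foxp2 was higher in dopamine at smaller ratios, 246 and 252 CPM against 58.8 and 41.2 CPM. These include factors that dopamine neurons themselves are not known for, and which cells made them was not tested.

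Hox genes, which give hindbrain and spinal segments their identity, had few or no counts in the 4 libraries. Of 23 hindbrain factors and Hox genes in the tables, 7 had enough counts to be tested and 11 had no count in any of the 4. Hoxa2, the Hox gene with the most anterior limit in the hindbrain, had no count in Lateral or Medial and was at 1.59 and 4.90 CPM in serotonin 1 and 2, at least 60.3-fold higher. Dbh, the noradrenaline synthesis enzyme, had no count in Lateral or Medial and was at 1.53 and 0.823 CPM in serotonin 1 and 2, at least 21.8-fold higher. Of 6 tested genes of the noradrenaline list, none had a log2 difference above 0 in the edgeR fit (50.9% of all tested genes). For 5 the classes did not overlap, with dopamine lower (26.6% of all tested genes), and for Adra2a they overlapped. None of the 6 was called by edgeR or DESeq2. Members with too few counts to be tested lay on either side. Pnmt had no count in serotonin 1 or 2 and a dopamine mean of 2.94 CPM, at least 57.4-fold higher in dopamine. Slc6a2 had no count in Lateral or Medial and a serotonin mean of 1.73 CPM, at least 32.1-fold higher in serotonin.

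Genes of other transmitters were present beside the monoamine genes. The GABA synthesis enzymes were higher in both dopamine libraries, Gad1 at 624 and 239.7 CPM against 77.03 and 108 CPM and Gad2 at 141 and 134 against 30.1 and 45.9. The GABA list as a whole had 12 tested genes. Of these, 6 did not overlap with dopamine higher (23.3% of all tested genes) and 3 with dopamine lower (26.6%). Its median was 0.88 in Lateral and -0.22 in Medial, against -0.02 and -0.20 for all tested genes, so Medial lay near its background. The vesicular glutamate transporter Slc17a6 was at 76.2 and 319.6 CPM in Lateral and Medial against 14.96 and 31.1 CPM in the serotonin libraries, with Medial the highest. Pou4f1, a factor of glutamate neurons of the red nucleus and habenula, was at 25.8 and 62.5 CPM against 8.28 and 3.94 CPM. Of 12 tested genes on the glutamate list, 11 had a log2 difference above 0 (50.9%), 7 did not overlap with dopamine higher (23.3% of all tested genes), and Slc17a8, named above, was the separated member with dopamine lower. None of these genes passed edgeR's test. The part of neighbouring GABA and glutamate cells in them was not tested.

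Neuropeptide and granule genes differed gene by gene. Chromogranin B (Chgb), a protein of dense-core vesicles, was at 677 and 803 CPM in serotonin 1 and 2 and 99.2 and 42.9 CPM in Lateral and Medial (log2 difference -3.44, SE 0.51, edgeR adjusted p = 0.261). Secretogranin 2 (Scg2) was at 816 and 887 CPM against 183 and 297 CPM, and the peptide-amidating enzyme Pam was at 72.8 and 67.5 against 15.3 and 16.9. The list of granins and prohormone-processing genes had 11 tested members, of which 6 did not overlap with dopamine lower (26.6% of all tested genes) and none with dopamine higher (23.3%), with a median of -0.27. Among peptide precursors, Cartpt was separated with dopamine higher, at 5.12 and 16.1 CPM against 0.577 and 0.343 CPM. Cholecystokinin (Cck), a peptide of many midbrain dopamine neurons, was low everywhere, at 0.572 and 3.52 CPM against 0.0339 and 0.0343 CPM.

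Receptor and channel genes differed from member to member, and none passed the test. The ionotropic glutamate receptor list had 16 tested genes, of which 9 did not overlap with dopamine higher (23.3% of all tested genes) and 3 with dopamine lower (26.6%), and a median of 1.06. Grin3a, a modulatory NMDA receptor subunit, was at 89.1 and 115 CPM in Lateral and Medial against 25.6 and 22.3 CPM in serotonin 1 and 2, and the AMPA receptor subunit Gria2 was at 156 and 202 against 82.7 and 72.98. Gria4 lay the other way, at 26.01 and 52.8 CPM against 65.9 and 88.5 CPM. The serotonin receptor Htr2c was separated with dopamine higher, at 4.64 and 31.8 CPM against 0.204 and 0.652 CPM. Among potassium channels Kcna5, at 3.07 and 16.6 CPM against 0.204 and 0.0686 CPM, was separated with dopamine higher. Kcnj3, a subunit of the channel through which inhibitory receptors act, was separated with dopamine lower, at 0 and 0.0446 CPM against 2.65 and 3.46 CPM. The list of 26 tested potassium channels had a median of 0.30 in Lateral and -0.49 in Medial.

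Most growth factor and guidance genes had a log2 difference above 0. Brain-derived neurotrophic factor (Bdnf) was at 54.2 and 87.2 CPM in Lateral and Medial against 4.31 and 4.87 CPM in serotonin 1 and 2, and neurotrophin 3 (Ntf3) was at 16.3 and 33.5 against 0.170 and 0.0686. These were the separated members of a list of 18 tested neurotrophic ligands and receptors, of which 14 were above 0 (50.9% of all tested genes), 12 did not overlap with dopamine higher (23.3%) and 2 did not overlap with dopamine lower (26.6%). The glial-derived factor receptors went apart, with Ret at 31.7 and 31.7 CPM against 19.1 and 10.8 CPM and its co-receptor Gfra1 at 37.8 and 31.4 CPM against 81.7 and 53.7 CPM. Of 33 tested axon guidance genes, 25 had a log2 difference above 0 (50.9% of all tested genes) and none was separated. These are long genes, with a median of 6521 bases of exon against 3748 for all tested genes, and differences moved with length (below). The Slit receptor Robo2 was at 119 and 164 CPM against 26.9 and 52.9 CPM. Tcf7l2, a Wnt pathway factor strong in thalamus and dorsal midbrain, was at 446 and 152 CPM against 20.1 and 45.2 CPM, and the secreted Wnt antagonist Sfrp1 was at 0.873 and 0.0446 against 11.2 and 16.5. Cyp26b1, which degrades the retinoic acid that Aldh1a1 can make, was at 9.13 and 34.6 CPM in serotonin 1 and 2 against 0.181 and 0 CPM in Lateral and Medial.

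Single synaptic genes lay on either side, and the list as a whole lay near the background. The active zone scaffold proteins Pclo and Bsn were higher in dopamine, Pclo at 279 and 361 CPM against 42.96 and 63.2 CPM and Bsn at 109 and 154 against 36.00 and 18.9. Complexin 2 (Cplx2), a clamp of vesicle fusion, was higher in serotonin, at 274 and 196 CPM against 88.7 and 69.7 CPM. Of 31 tested genes for synaptic vesicles and active zones, 10 did not overlap with dopamine higher (23.3% of all tested genes) and 8 with dopamine lower (26.6%), shares near those of all genes, and the median was 0.16. The microtubule-associated gene Map1a was at 468 and 538 CPM in Lateral and Medial against 42.4 and 79.9 CPM in serotonin 1 and 2, and Map2 was at 1212 and 856 against 358 and 435. The growth cone protein Gap43 lay the other way, at 3177 and 2713 CPM against 6072 and 5585 CPM.

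Most genes of glia and their progenitors were higher in both dopamine libraries than in either serotonin library. All 21 tested genes of a 22-gene list for radial glia and astrocytes had a log2 difference above 0 (50.9% of all tested genes), 16 did not overlap with dopamine higher (23.3%), 8 were separated (1.42%), and the median was 1.85. Summed over the list, the level was 3209 and 5227 CPM in Lateral and Medial and 1188 and 1817 CPM in serotonin 1 and 2. Sox9, a glial and progenitor factor, was at 138 and 198 CPM against 29.6 and 26.8 CPM, the glial bicarbonate transporter Slc4a4 at 62.6 and 75.1 against 3.26 and 4.49, and the gap junction gene Gja1 at 60.96 and 82.7 against 0.713 and 4.73. The astrocyte filament gene Gfap was at 8.07 and 0 CPM in Lateral and Medial and 0.0339 and 0 CPM in serotonin 1 and 2. Fabp7, a radial glia gene, was not low in any library, at 1082 and 1627 CPM against 451 and 529.7 CPM. The part of these cells in the other differences was not tested.

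The medians of the oligodendrocyte, cell cycle and vessel lists lay on the same side in both dopamine libraries, and that of the cilium list in Medial only (2.94, against -0.07 in Lateral). Of 15 tested oligodendrocyte-lineage genes, 4 were separated with dopamine higher (1.42% of all tested genes) and the median was 2.31, with list sums of 358 and 694 CPM in Lateral and Medial and 139 and 183 CPM in serotonin 1 and 2. The proteoglycan Cspg4 of precursor cells was at 58.9 and 145 CPM against 0.373 and 3.81 CPM, and the growth factor receptor Pdgfra at 55.4 and 121 against 2.31 and 9.53. Of 22 tested cell cycle genes, 12 did not overlap with dopamine higher (23.3% of all tested genes) and 1 with dopamine lower (26.6%), with the replication licensing gene Mcm3 at 20.8 and 35.9 CPM against 3.16 and 2.50 CPM. The endothelial receptor Flt1 was at 6.05 and 19.8 CPM against 0.0339 and 0.103 CPM, with no count in the datL and datM libraries. The endothelial and mural list summed to 90.3 and 314 CPM in Lateral and Medial against 32.4 and 49.6 CPM in serotonin 1 and 2. Of its 13 tested genes, 8 did not overlap with dopamine higher (23.3% of all tested genes) and 3 with dopamine lower (26.6%). Motile cilium genes were high in Medial alone: their summed level was 691 CPM there, against 78.8 CPM in Lateral and 98.9 and 85.1 CPM in serotonin 1 and 2. Microglia genes were near 0, with list sums of 10.3 and 0.268 CPM in Lateral and Medial and 1.90 and 1.92 CPM in the serotonin libraries, and none of the 13 had enough counts to be tested.

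Globin genes, which come from blood cells, differed by developmental type. The adult globin Hbb-bs was at 41.2 and 96.98 CPM in Lateral and Medial against 8.65 and 18.2 CPM in serotonin 1 and 2, and Hba-a1 was at 26.3 and 76.1 against 8.42 and 9.50. Reads of such near-identical globin copies can be split between them, so single values are uncertain. The embryonic globin Hbb-y had no count in Lateral or Medial and was at 4.34 and 9.67 CPM in serotonin 1 and 2, at least 129.95-fold higher. In the datL and datM libraries, whose headers carry no E18 mark, Hbb-y lay between 13.4 and 135 CPM. The adult globins were present there too, Hbb-bs between 64.4 and 274 CPM and Hba-a1 between 51.2 and 147 CPM. The embryonic globin Hba-x likewise had no count in Lateral or Medial and was at 1.09 and 2.13 CPM in serotonin 1 and 2. In the datL and datM libraries Hba-x lay between 0 and 35.6 CPM, with no count in datL 2. The part of the E18 mark in these globin levels was not tested.

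**Figure D3:**
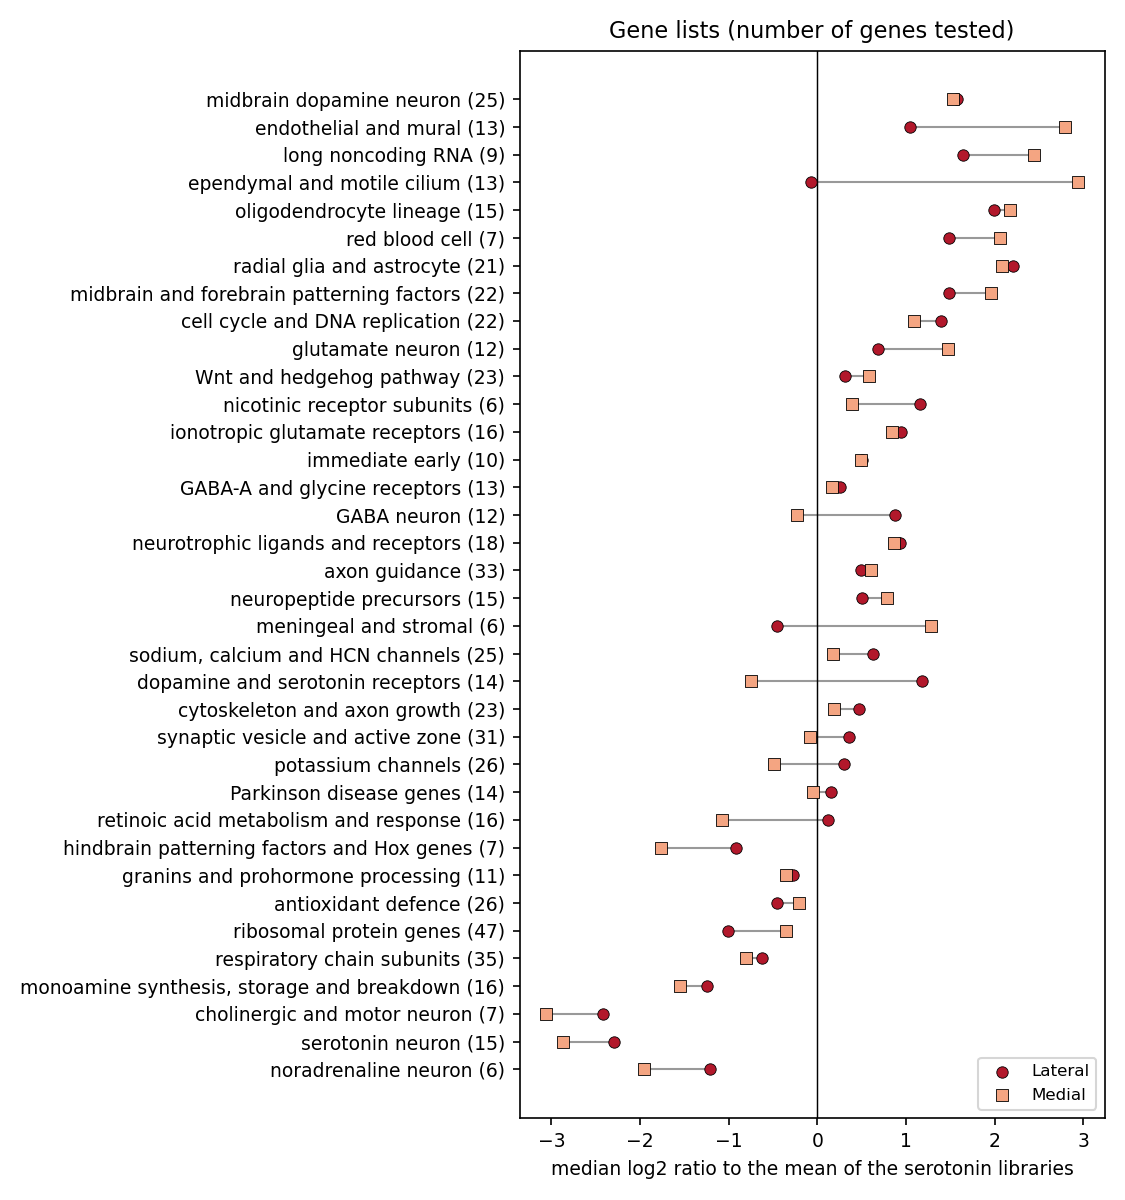
Median log2 ratio of the genes of each list to the mean of the 2 serotonin libraries, for Lateral (circles) and Medial (squares), with the number of tested genes in brackets. Lists are ordered by edgeR's median over both dopamine libraries. The medians of Lateral and Medial are close for the midbrain dopamine list and far apart for the motile cilium list.

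Most ribosomal and respiratory genes were lower in both dopamine libraries by small steps, and none passed the test. Of 47 ribosomal protein genes, 34 did not overlap with dopamine lower (26.6% of all tested genes) and 1 with dopamine higher (23.3%), with a median log2 difference of -0.66 and none separated. Rps14 was at 803 and 834 CPM in Lateral and Medial against 1833 and 1802 CPM in serotonin 1 and 2, and the gene of the tagged protein in bacTRAP mice, Rpl10a, was at 186 and 207 against 448 and 404. Of 35 respiratory chain subunits, 23 did not overlap with dopamine lower (26.6%) and 3 with dopamine higher (23.3%), and the median was -0.72, with Cox6c at 217 and 291 CPM against 591 and 518 CPM. Both lists hold short genes: 32 of the 47 and 18 of the 35 lay in the shortest of 5 equal bins of exon length. Ribosomal protein genes have many processed copies in the genome, so their counts are uncertain one by one.

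The difference between the classes moved with gene length over all tested genes. The median log2 difference was -0.53 for the 2681 genes of up to 1981 bases, -0.19, 0.02 and 0.23 in the next 3 bins, and 0.52 for the 2680 genes of at least 6431 bases. Lateral and Medial each showed this, with medians of -0.51 and -0.55 in the shortest bin and 0.45 and 0.48 in the longest. Between serotonin 1 and 2 the medians ran from 0.13 to -0.12. Over both dopamine libraries, edgeR's medians of the ribosomal and respiratory lists lay near that of the shortest bin. By library they did so less: the ribosomal median was -1.01 in Lateral and -0.35 in Medial, and the respiratory median -0.63 and -0.81. Long noncoding RNAs, at a median length of 8521 bases, had a median difference of 2.37 over 9 tested genes, with Meg3 at 618 and 1591 CPM in Lateral and Medial against 106 and 146 CPM in the serotonin libraries and Malat1 at 501 and 1409 against 89.6 and 132. The axon guidance and ionotropic glutamate receptor lists, at median lengths of 6521 and 6551 bases, had median differences of 0.84 and 1.06, against 0.52 in the longest bin. The part of gene length in all these lists was not tested.

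**Figure D4:**
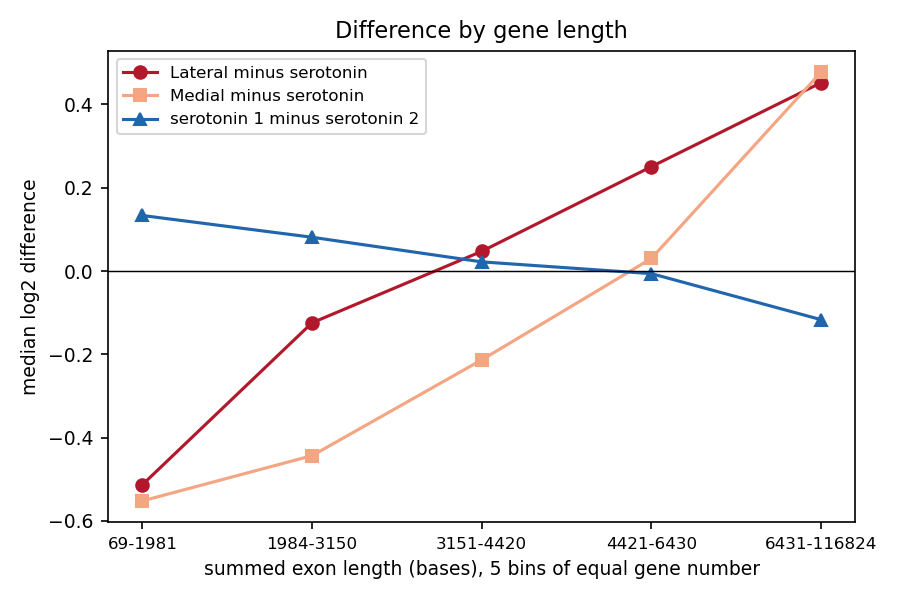
Median log2 difference in 5 bins of summed exon length with about equal numbers of genes, for Lateral and Medial each minus the mean of the serotonin libraries and for serotonin 1 minus serotonin 2. Both dopamine lines climb from about -0.5 in the shortest bin to 0.45 and 0.48 in the longest, and the serotonin line falls from 0.13 to -0.12.

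Genes outside the identity groups were among the clearest by p-value. The cystine transporter Slc7a11, which supplies glutathione synthesis, was at 353 and 148 CPM in Lateral and Medial against 2.44 and 3.57 CPM in serotonin 1 and 2 (log2 difference 6.33, SE 0.64, edgeR adjusted p = 0.128). The mitochondrial enzyme pyruvate carboxylase (Pcx) was at 116 and 77.8 CPM against 8.79 and 7.24 CPM, the fatty acid enzyme Acsbg1 at 164 and 112 against 16.7 and 14.7, and the protease inhibitor Serpine2 at 299 and 249 against 35.1 and 54.6. The synaptic adaptor Srcin1 was at 184 and 207 CPM against 37.8 and 32.2 CPM. Each of these was separated with dopamine higher, and none of the 5 passed the adjusted threshold.

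On the serotonin side, the co-chaperone Dnajc12, which assists the aromatic amino acid hydroxylases, was at 563 and 517 CPM in serotonin 1 and 2 against 36.97 and 9.32 CPM in Lateral and Medial (log2 difference -4.59, SE 0.74, edgeR adjusted p = 0.272). The transcriptional co-activator Cited1 was at 791 and 469 CPM against 5.90 and 38.1 CPM. The homeobox gene Hmx2 had no count in Lateral or Medial and was at 11.3 and 9.40 CPM in serotonin 1 and 2, at least 192-fold higher. Plekha2 was at 23.5 and 30.1 CPM against 0.0903 and 0.0446 CPM. The G protein subunit Gng5 was at 102 and 79.6 CPM against 16.3 and 17.5 CPM, the secreted protein Cthrc1 at 77.9 and 92.5 against 16.4 and 15.1, and the heparan sulphate proteoglycan Gpc3 at 31.3 and 48.5 against 5.72 and 2.81. In the datL and datM libraries Cited1 lay between 0 and 29.5 CPM, Plekha2 between 0 and 40.3 and Hmx2 had no count.

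Within the dopamine class, some genes were present in one library and nearly absent from the other. Of 8024 genes with at least 20 CPM in Lateral or Medial, 148 were under 0.5 CPM in the other library. Of the 148, 86 were high in Lateral and 62 in Medial. The same count was 21 of 7295 and 24 of 7334 between Lateral and serotonin 1 and 2. It was 169 of 7990 and 208 of 8036 between Medial and serotonin 1 and 2, and 1 of 6945 between serotonin 1 and 2. The homeobox gene Meis2 was at 63.6 and 0.134 CPM in Lateral and Medial and at 49.5 and 140.1 CPM in serotonin 1 and 2, and adenosine kinase (Adk) was at 43.4 and 0.0446 against 25.5 and 35.3. The origin recognition subunit Orc5 was at 53.3 and 0.134 CPM against 33.8 and 27.1 CPM. For these 3 genes Medial was low and the other 3 libraries were alike in order of magnitude.

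The genes highest in Medial relative to Lateral included cilium genes. Cfap52, a protein of motile cilia, was at 0 and 51.03 CPM in Lateral and Medial against 3.16 and 8.51 CPM in serotonin 1 and 2, and Lrrc23, a radial spoke protein, was at 0.120 and 114 against 0.679 and 2.16. Annexin A1 (Anxa1) was at 0.331 and 102 CPM against 59.9 and 45.6 CPM, so that it was low in Lateral alone. The phosphodiesterase Pde3b was at 0.151 and 56.7 CPM against 4.41 and 2.85 CPM. Over all tested genes, Lateral lay above and Medial below both serotonin libraries at 1492 genes (11.1%), and the reverse held at 1209 (9.02%). With 1 library each, Lateral and Medial have no replicate check, and a difference between 2 regions and a difference between 2 libraries cannot be told apart.

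**Figure D5:**
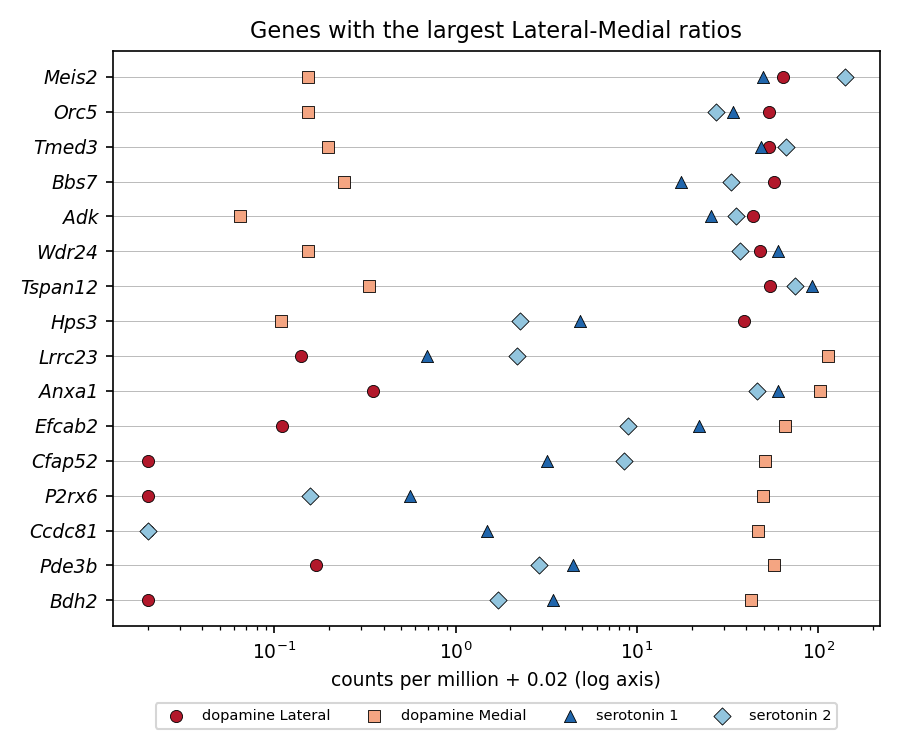
Level in each library of the 8 genes with the highest Lateral to Medial ratio (top) and the 8 with the highest Medial to Lateral ratio (bottom) among genes with at least 200 counts over both, in CPM with 0.02 added on a log axis. Medial is the lowest library for each of the 8 top genes, and Lateral is the lowest for each of the 8 bottom genes, level with serotonin 2 for Ccdc81.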

How the data were processed

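Each library came with its own table of raw read counts per gene, and the authors deposited these counts without normalisation. The submitters' processing notes name STAR and the build mm10. The file headers name featureCounts 1.4.3-p1 with the GENCODE vM2 annotation and a setting that ignores strand, so a gene and its antisense partner cannot be told apart. Of 38924 gene identifiers, 37607 were matched to a symbol. Library pairs held equal counts at between 0.388% and 1.16% of genes, so none was a repeat deposit.

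Lateral and Medial were joined as the dopamine class and compared with serotonin 1 and 2 by edgeR 4.0.16 in R 4.3.3 (TMM factors, default expression filter, quasi-likelihood test, two-sided, Benjamini-Hochberg threshold 0.05). The spread within the dopamine class includes any difference between Lateral and Medial. DESeq2 1.42.0, limma 3.58.1, other filters, other scaling and leaving out each library were alternatives. Folds against a class without counts used a floor of 3 counts over that class and cover counting error only.

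Named genes were the transmitter identity genes, every called gene, the 15 separated genes per direction with the smallest p and at least 5 CPM in the higher class, up to 6 members per list by p, members at or near 0, and the 8 largest Lateral to Medial ratios each way. Members of lists outside this rule (Pitx3, Foxa1, Foxa2, En1, Gucy2c, Htr1a, Insm1, Pts, Maob, Pnmt, Slc6a2, Ret, Gfap and Fabp7) were chosen after their values were seen. The members and the 37 lists were chosen with earlier results of these data known. The fit was first tested on simulated data. Some list members are not reported here by name.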

Additional observations from a re-analysis of the deposited data

Results flagged for a closer look

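Some named genes lay on opposite sides of both serotonin libraries in Lateral and in Medial, and with 1 library each the difference was not tested. As log2 of Lateral minus Medial, the values were 6.45 for Orc5, 6.37 for Bbs7, 6.36 for Adk and 6.10 for Hps3, each above the serotonin libraries in Lateral and below them in Medial. The reverse order held for Lrrc23 at -7.42, Anxa1 at -6.84, Efcab2 at -6.70, Cfap52 at -6.59, P2rx6 at -6.54, Pde3b at -6.35 and Bdh2 at -6.33. A smaller difference of the same kind was -1.96 for the serotonin autoreceptor Htr1a. Apart from Htr1a, these genes were picked for their Lateral to Medial ratio, so the size of the difference is a description.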

How the results depend on the processing

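No paired analysis was possible because Lateral and Medial are 1 library each and share only 1 replicate number with the serotonin libraries. The 3 calls (1 higher, 2 lower) were the same with RLE factors and against a 2-fold change. DESeq2 called 917 genes (585 higher, 332 lower), limma-voom 1 (0 higher, 1 lower), no expression filter 7 (4 higher), a filter of 5 CPM in 2 libraries 5 (2 higher), and all 8 libraries in 5 groups 0 (0 higher, 0 lower). Leaving out 1 library gave 13 to 2453 calls, 6 to 934 higher and 7 to 1519 lower. Separated genes numbered 317, and 1438 (736 higher, 702 lower) for a gap of 2 times, 82 (51, 31) for 8 times, 567 (285, 282) with 0.1 CPM added and 114 (78, 36) with 2 CPM added. Leaving out 1 library gave 561 to 2503, with 332 to 871 higher and 221 to 1632 lower. Of 94 genes tested and named, 92 kept their direction in every setting. Many were named for a small p, for a gap between the classes, or after their values were seen. Where the classes do not overlap, leaving out 1 library can hardly change the direction, so this is a description and not a check. Over the libraries left out, the log2 difference of En1 ran from -0.30 to 0.062 (without Lateral) and that of Htr1a from -1.34 to 0.68 (without Lateral). Htr1a also turned to 0.034 with RLE factors, 0.033 in DESeq2, 0.021 with the filter of 5 CPM and 0.17 without serotonin 1. The cause was not tested. Medians of 11 of 36 lists changed sign in at least 1 setting, among them those for GABA neurons and synaptic vesicles (without Lateral), potassium channels (-0.57 without Lateral, -0.15 in limma-voom and -0.21 with all 8 libraries) and motile cilium genes (-0.06 without Medial).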
